A study of Mus musculus with 6 samples.

Results

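The genes described here are 7 matrix metalloproteinases (Mmp2, Mmp3, Mmp9, Mmp11, Mmp13, Mmp14 and Mmp15) and 3 tissue inhibitors of metalloproteinases (Timp1, Timp2 and Timp3). They were listed by symbol as a gene family, with earlier results of these data known. These 10 of 22800 gene symbols were each found once in every library. RNA was sequenced from MOE HIGH cells at passages 90, 103 and 113 and from MOE LOW cells at passages 8, 9 and 10. Both are murine oviductal epithelial cells of 1 line, which was pooled from oviducts of outbred CD1 females, received no viral oncoprotein and was aged into MOE HIGH by serial passage alone. Cells of both groups grew in medium with fetal bovine serum, epidermal growth factor, insulin, transferrin and estradiol. Each passage gave 1 library, so a p-value here measures only the spread between passages of a single line that was aged in culture.

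Matrix metalloproteinases (MMPs) are zinc-dependent enzymes that cut collagens, laminins, fibronectin and other proteins of the extracellular matrix, and most are made as inactive proenzymes. TIMPs bind the active site and block it, and TIMP2 also has a second role, since together with the membrane enzyme MMP14 it forms the complex in which proMMP2 is activated. In the oviduct and in ovarian cancer these enzymes are known for their part in remodelling of stroma and basement membrane, and MMP2 in particular is made largely by stromal cells.

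Of the 10 genes, 7 fell in MOE HIGH, 1 rose and 2 were too low to enter the test. The gelatinase gene Mmp2 and the membrane-type gene Mmp14 fell most among the MMPs, and the matrix-bound inhibitor gene Timp3 fell most among the TIMPs. The collagenase gene Mmp13 was the only member that rose. Levels are in FPKM, fragments per length of transcript and depth of library. Genes averaging 0.5 FPKM or more, 11621 in all, entered a limma test of log2(FPKM + 1), and those with an adjusted p under 0.05 are said to rise or fall. Of them 32.1% were lower, 24.3% were higher and 56.4% were called in either direction. The 3 libraries of MOE HIGH did not overlap with those of MOE LOW for 64.0% of tested genes (35.5% lower and 28.5% higher) and for all 8 tested members. Mmp3 and Mmp9, which were near 0 and not tested, did not overlap either and were lower. A call of a single member is thus not rare in these data, and its size says more than the call. The median log2 fold change was -1.59 over the 8 members tested and -0.05 over all tested genes. When genes were tested against a 2-fold change, which 7.80% of all genes passed as lower and 2.61% as higher, Mmp2, Mmp14 and Timp3 were lower and Mmp13 was higher, while Mmp11, Mmp15, Timp1 and Timp2 no longer passed.

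**Figure D1:**
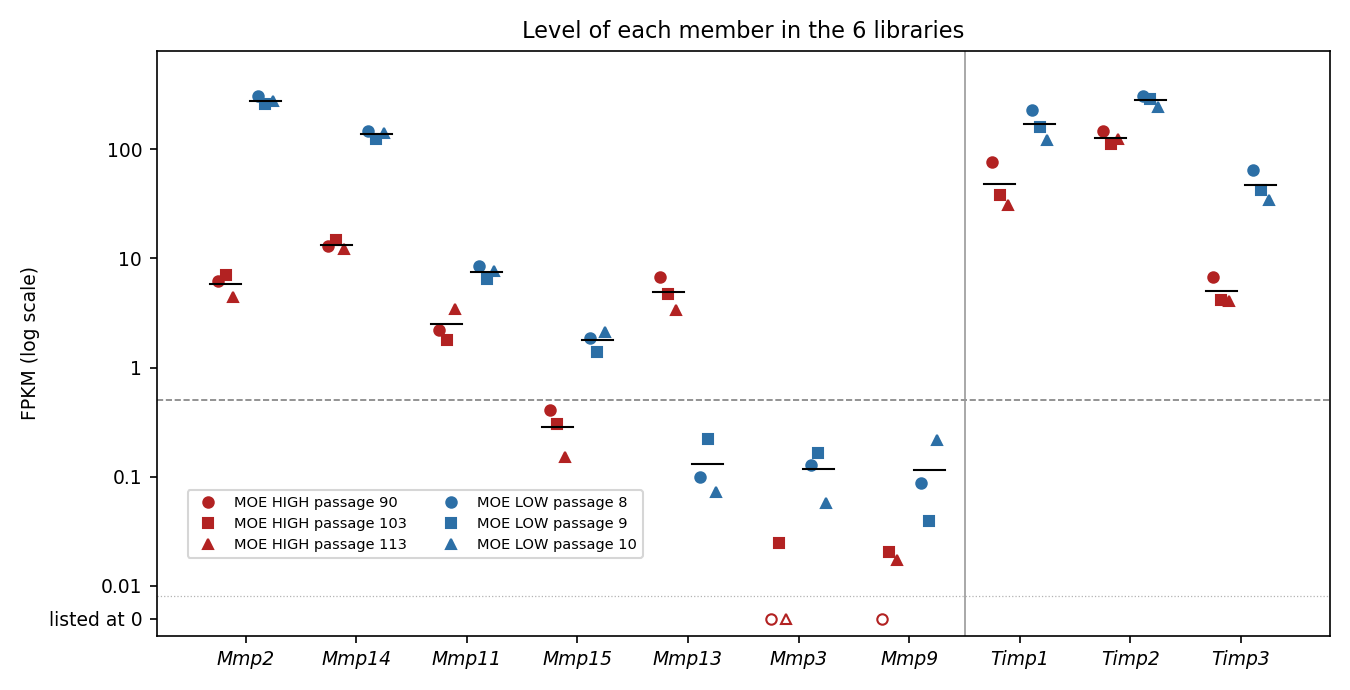
Level of the 10 genes in FPKM on a log scale, with MOE HIGH passages in red to the left of MOE LOW passages in blue, 1 point per library. Short black lines are group means (omitted where a library is listed at 0, drawn as open points at the bottom), and the dashed line marks 0.5 FPKM; Mmp13 alone lies higher in MOE HIGH, and Mmp3 and Mmp9 lie under the dashed line in all 6 libraries.

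MMP2, or gelatinase A, degrades gelatin and type IV collagen. Its gene lies on chromosome 8 of mm10 from 92827291 to 92853420. Mmp2 was at 6.21, 7.05 and 4.42 FPKM in passages 90, 103 and 113 of MOE HIGH, against 306, 259 and 276 FPKM in passages 8, 9 and 10 of MOE LOW. The groups lay far apart, with all 3 MOE HIGH libraries close together. Its mean was 5.89 ± 1.34 FPKM in MOE HIGH and 280.0 ± 23.8 FPKM in MOE LOW (SD, n = 3 passages each), 47.5 times lower in MOE HIGH, and its log2 fold change was -5.37 ± 0.16 (SE, limma adjusted p = 2.1e-07). The 575 tested genes of chromosome 8 include Mmp2 and Mmp15. Of these, 104 were lower and 261 were higher, with a median log2 fold change of 0.29. This median was -0.32 on chromosome 14 (Mmp14), -0.16 on X (Timp1), -0.14 on 9 (Mmp3 and Mmp13) and -0.12 on 10 (Mmp11 and Timp3). It was -0.04 on chromosome 11 (Timp2) and 0.21 on chromosome 2 (Mmp9).

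MMP14 is the membrane-anchored enzyme that starts the activation of proMMP2 at the cell surface. Its gene lies on chromosome 14 of mm10 from 54431612 to 54445364. Mmp14 was at 13.1, 14.7 and 12.2 FPKM in MOE HIGH passages 90, 103 and 113, against 146, 125 and 141 FPKM in MOE LOW passages 8, 9 and 10. It was the steadiest MMP among passages, with a highest level 1.21 times the lowest within MOE HIGH and 1.17 times within MOE LOW. The mean was 13.3 ± 1.29 FPKM in MOE HIGH and 137 ± 10.9 FPKM in MOE LOW (SD, n = 3 each), and the log2 fold change was -3.27 ± 0.11 (SE, limma adjusted p = 3.8e-07). The genes of MMP2 and of its activating enzyme were thus both lower, and so was Timp2, although by less.

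Mmp11 and Mmp15 were low in both groups and fell further. MMP11 (stromelysin 3) is activated inside the cell by furin-type convertases and acts only weakly on the classic matrix proteins. Mmp11 (mm10, chromosome 10, bases 75923222 to 75936496) was at 2.19, 1.79 and 3.47 FPKM in MOE HIGH passages 90, 103 and 113, against 8.55, 6.46 and 7.60 FPKM in MOE LOW passages 8, 9 and 10. The groups did not overlap, and its log2 fold change was -1.31 ± 0.19 (SE, limma adjusted p = 0.00067). Its gene overlaps Chchd10 on the opposite strand, which was at 1.49 to 2.91 FPKM in MOE HIGH and 1.10 to 2.22 FPKM in MOE LOW, and whether the counting used strand is not given in the sources used here. MMP15 is a second membrane-type enzyme. Mmp15 (mm10, chromosome 8, bases 95352268 to 95375080) was at 0.413, 0.301 and 0.15 FPKM in MOE HIGH passages 90, 103 and 113, against 1.85, 1.38 and 2.12 FPKM in MOE LOW passages 8, 9 and 10. Again no MOE HIGH library reached the lowest MOE LOW library, and the log2 fold change was -1.11 ± 0.14 (SE, limma adjusted p = 0.00034). A pseudocount of 1 understates the change of so low a gene, and with a pseudocount of 0.01 the log2 fold change of Mmp15 was -2.68.

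MMP13, or collagenase 3, cuts fibrillar collagen and is the main interstitial collagenase of the mouse. Mmp13 (mm10, chromosome 9, bases 7272514 to 7283331) was at 6.70, 4.72 and 3.38 FPKM in MOE HIGH passages 90, 103 and 113, against 0.10, 0.223 and 0.0721 FPKM in MOE LOW passages 8, 9 and 10. It was close to absent in each MOE LOW library and present in each MOE HIGH library, with the lowest MOE HIGH value well above the highest MOE LOW value. The mean was 4.93 ± 1.67 FPKM in MOE HIGH and 0.132 ± 0.0802 FPKM in MOE LOW (SD, n = 3 each), 37.5 times higher in MOE HIGH, and without passage 9 the MOE LOW mean was 0.0861 FPKM. The log2 fold change was 2.35 ± 0.20 (SE, limma adjusted p = 3.8e-05), and it was 4.44 with a pseudocount of 0.1 and 5.21 with a pseudocount of 0.01. Even so, Mmp13 stayed a gene of modest level in MOE HIGH, below Mmp14 in all 3 libraries.

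Mmp13 lies at 1 end of a cluster of 10 MMP genes on chromosome 9, which spans 427.1 kb from 7272514 to 7699585 and also holds Mmp3. The rise of Mmp13 was not shared along this cluster. Mmp1a, Mmp1b, Mmp7, Mmp8, Mmp12 and Mmp20 were listed at 0 in all 6 libraries, and Mmp10 and Mmp27 reached at most 0.0576 and 0.0730 FPKM, each in a MOE LOW library. MMP3 (stromelysin 1) cuts many matrix proteins and activates other proMMPs. Mmp3, on chromosome 9 from 7445822 to 7455975 and 173.3 kb from the start of Mmp13, was listed at 0, 0.0249 and 0 FPKM in MOE HIGH passages 90, 103 and 113, against 0.129, 0.165 and 0.0574 FPKM in MOE LOW passages 8, 9 and 10. Its level was thus close to none in both groups, and lower in each MOE HIGH library than in any MOE LOW library.

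The promoters of Mmp13 and Mmp3 are shown because both genes stand in 1 cluster and are known to respond to AP-1, the Fos and Jun transcription factors, yet only Mmp13 rose. The promoters of Mmp14 and Timp1, which fell, are shown beside them. Each run is the 150 bases before the start site that RefSeq gives on GRCm38.p6 (mm10), on the + strand of chr9:7272364-7272513 for Mmp13, chr9:7445672-7445821 for Mmp3, chr14:54431448-54431597 for Mmp14 and chrX:20870016-20870165 for Timp1, with capitals for the motifs found.
Mmp13: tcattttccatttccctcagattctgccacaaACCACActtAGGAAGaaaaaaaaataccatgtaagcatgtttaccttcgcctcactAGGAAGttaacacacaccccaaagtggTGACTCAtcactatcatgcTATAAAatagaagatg
Mmp3: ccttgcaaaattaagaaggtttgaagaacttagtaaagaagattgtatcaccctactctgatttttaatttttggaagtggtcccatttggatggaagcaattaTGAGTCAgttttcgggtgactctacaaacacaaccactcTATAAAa
Mmp14: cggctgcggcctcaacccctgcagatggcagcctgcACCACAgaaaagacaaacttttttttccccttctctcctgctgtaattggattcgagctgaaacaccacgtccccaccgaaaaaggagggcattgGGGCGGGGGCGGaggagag
Timp1: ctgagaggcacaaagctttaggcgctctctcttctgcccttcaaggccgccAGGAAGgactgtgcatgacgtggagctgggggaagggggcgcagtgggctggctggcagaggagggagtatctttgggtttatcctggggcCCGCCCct
Motifs were searched on both strands and in the runs shown none shares letters with another. AP-1 was searched as TGANTCA. The core bound by RUNX factors was searched as TGTGGT or, on the other strand, ACCACA. The element of ETS factors of the PEA3 type was searched as AGGAAG or its complement CTTCCT. The GC box was searched as GGGCGG or its complement CCGCCC. The TATA box was searched as TATAAA or its complement TTTATA. Of 32851 RefSeq promoters of this length, 4.24% held the AP-1 motif, 8.40% the RUNX core, 19.7% the ETS motif, 28.6% a GC box and 7.57% a TATA box. The AP-1 motif begins 35 bases before the start of Mmp13 and 46 bases before that of Mmp3. A TATA box stands between it and the start in both, beginning at 16 bases in Mmp13 and 7 bases in Mmp3. All distances count from the RefSeq start, which was not checked in these cells. The Mmp13 run also holds a RUNX core at 118 bases and 2 ETS motifs at 109 and 62 bases before the start, none of which is in the Mmp3 run. The runs of genes that fell hold such letters too, with a RUNX core at 114 bases before the start of Mmp14 and an ETS motif at 99 bases before that of Timp1. Neither AP-1 nor TATA letters are in the Mmp14 and Timp1 runs, which hold GC boxes next to their start. Of the 10 members 8 had an entry, and among these GC content was 38.7% for Mmp13 and 35.3% for Mmp3, and 57.3% to 73.3% for Mmp11, Mmp14, Mmp15 and the 3 TIMP genes (median of all promoters 54.0%). Such matches describe letters only and show no binding, and their absence from a run shows no lack of a response to these factors.

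MMP9, or gelatinase B, cuts the same substrates as MMP2. Mmp9 (mm10, chromosome 2, bases 164940780 to 164955850) was listed at 0, 0.0205 and 0.0175 FPKM in MOE HIGH passages 90, 103 and 113, against 0.0872, 0.0396 and 0.218 FPKM in MOE LOW passages 8, 9 and 10. It was near 0 throughout, so gelatinase RNA of these cells was almost wholly that of Mmp2, and the MOE LOW mean of Mmp9 rested on passage 10 (0.115 FPKM, and 0.0634 FPKM without it). Neither Mmp3 nor Mmp9 reached the mean of 0.5 FPKM needed for the test. Without that filter, when 27.4% of 16525 genes were lower and 17.6% higher, Mmp3 passed as lower (limma adjusted p = 0.021) and Mmp9 did not (limma adjusted p = 0.10). Depth in reads is unknown, because FPKM keep none in absolute terms, and at these values a few fragments decide the level.

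The 3 TIMP genes all fell, by unequal amounts. TIMP1 is a secreted inhibitor of most soluble MMPs. Timp1 (mm10, chromosome X, bases 20870166 to 20874735) was at 76.0, 38.4 and 31.0 FPKM in MOE HIGH passages 90, 103 and 113, against 231, 160 and 122 FPKM in MOE LOW passages 8, 9 and 10. It varied among passages, with a highest level 2.45 times the lowest within MOE HIGH and 1.89 times within MOE LOW, but the groups did not overlap. Its mean was 48.4 ± 24.1 FPKM in MOE HIGH and 171 ± 55.2 FPKM in MOE LOW (SD, n = 3 each), and its log2 fold change was -1.86 ± 0.34 (SE, limma adjusted p = 0.0024), with the largest standard error among the members. Timp1 lies inside Syn1, a gene of the opposite strand that was at 0.110 to 0.203 FPKM in MOE HIGH and 0.641 to 1.25 FPKM in MOE LOW.

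TIMP2 inhibits MMPs and bridges MMP14 to proMMP2. Timp2 (mm10, chromosome 11, bases 118301069 to 118355740) was at 146, 112 and 125 FPKM in MOE HIGH passages 90, 103 and 113, against 307, 289 and 246 FPKM in MOE LOW passages 8, 9 and 10. The groups did not overlap. Timp2 was the most abundant member in both groups and, by ratio of means, the one that changed least. The mean was 128 ± 16.8 FPKM in MOE HIGH and 281 ± 31.2 FPKM in MOE LOW (SD, n = 3 each), 2.20 times lower in MOE HIGH, and its log2 fold change was -1.13 ± 0.14 (SE, limma adjusted p = 0.00026). Cep295nl lies inside Timp2 on the same strand and has no FPKM here, so its part in the Timp2 level is unknown.

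TIMP3 stays bound to the matrix and also inhibits ADAM proteases. Timp3 (mm10, chromosome 10, bases 86300372 to 86349506) was at 6.78, 4.13 and 4.05 FPKM in MOE HIGH passages 90, 103 and 113, against 64.5, 42.3 and 34.2 FPKM in MOE LOW passages 8, 9 and 10. Even the lowest MOE LOW library was well above the highest MOE HIGH library. The mean was 4.99 ± 1.56 FPKM in MOE HIGH and 47.0 ± 15.7 FPKM in MOE LOW (SD, n = 3 each), 9.42 times lower in MOE HIGH, and its log2 fold change was -2.98 ± 0.26 (SE, limma adjusted p = 4.2e-05). Its gene lies inside Syn3, of the opposite strand, which was at 0.266 to 0.514 FPKM in MOE HIGH and 0.123 to 0.189 FPKM in MOE LOW, far below Timp3. In each group the lowest passage number, 90 in MOE HIGH and 8 in MOE LOW, held the highest level of all 3 TIMP genes.

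**Figure D2:**
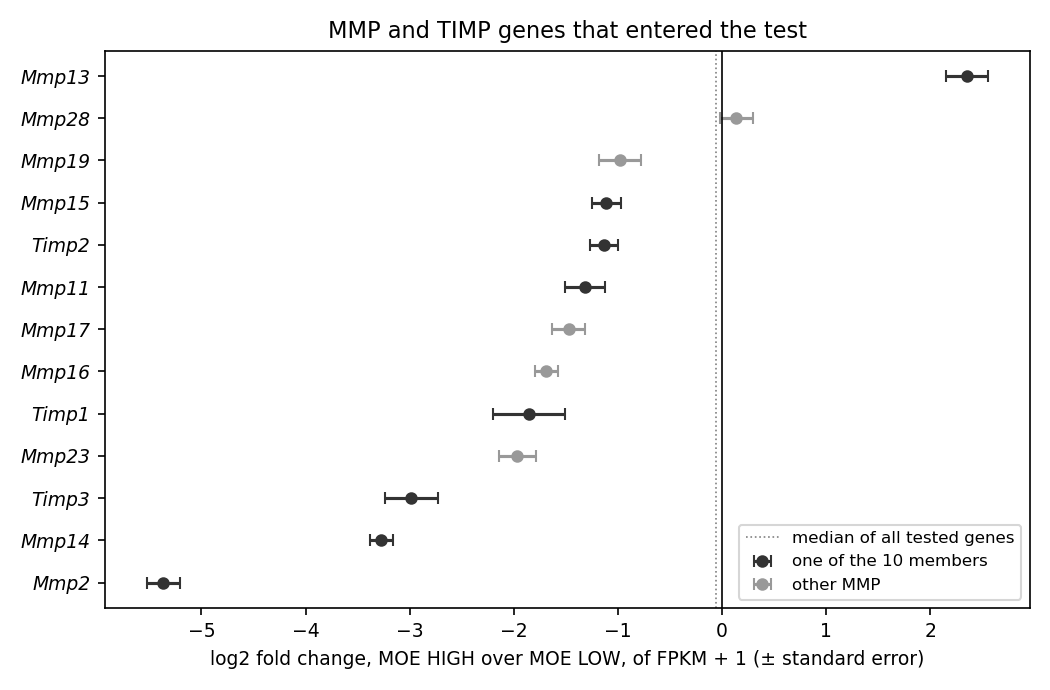
Log2 fold change of MOE HIGH over MOE LOW on the log2(FPKM + 1) scale, with its standard error, for the 8 members (black) and the 5 other MMP genes (grey) that entered the test; the dotted line is the median of all tested genes (-0.05). Mmp13 stands at 2.35 and Mmp28 near 0, and the other 11 genes lie between -5.37 and -0.98.

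Levels can be compared between these genes because FPKM are per length of transcript. In MOE HIGH the order was Timp2, Timp1, Mmp14, Mmp2, Timp3, Mmp13, Mmp11 and Mmp15, with Mmp9 and Mmp3 last. There the ranges of Mmp2, Timp3 and Mmp13 overlapped, as did those of Mmp13 and Mmp11, while Mmp11 lay below every library of Mmp2 and Timp3. In MOE LOW the order was Timp2, Mmp2, Timp1, Mmp14, Timp3, Mmp11 and Mmp15, with Mmp13, Mmp3 and Mmp9 last. There Timp2 and Mmp2 overlapped, as did Timp1 and Mmp14 and the 3 genes at the end. Mmp2 was thus level with the most abundant inhibitor in MOE LOW and 3 places below it in MOE HIGH.

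The makeup of MMP and TIMP RNA differed between the groups. Mmp2 made up 21.7 ± 2.96% of the summed FPKM of the 7 MMP genes in MOE HIGH and 65.6 ± 0.809% in MOE LOW (SD, n = 3 each). The share of Mmp14 was 49.6 ± 3.32% in MOE HIGH and 32.2 ± 0.740% in MOE LOW, and that of Mmp13 was 18.1 ± 4.76% in MOE HIGH and 0.0318 ± 0.0218% in MOE LOW. Among TIMPs, Timp2 held 71.5 ± 7.24% in MOE HIGH and 57.0 ± 5.35% in MOE LOW, while Timp3 held 2.72 ± 0.227% in MOE HIGH and 9.26 ± 1.25% in MOE LOW. Mmp14 was thus the leading MMP transcript in MOE HIGH and Mmp2 in MOE LOW, while Timp2 led the TIMPs in both. The summed MMP level was 28.6, 28.6 and 23.6 FPKM in MOE HIGH passages 90, 103 and 113, against 463, 392 and 427 FPKM in MOE LOW passages 8, 9 and 10. The summed TIMP level was 228, 155 and 160 FPKM in MOE HIGH passages 90, 103 and 113, against 602, 492 and 403 FPKM in MOE LOW passages 8, 9 and 10. The ratio of summed TIMP to summed MMP level was 7.99, 5.41 and 6.78 in MOE HIGH passages 90, 103 and 113, against 1.30, 1.26 and 0.944 in MOE LOW passages 8, 9 and 10, so the groups did not overlap and MMP RNA was lower by the larger factor. These sums are a description of RNA, no test was made on them, and they say nothing of enzyme activity.

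**Figure D3:**
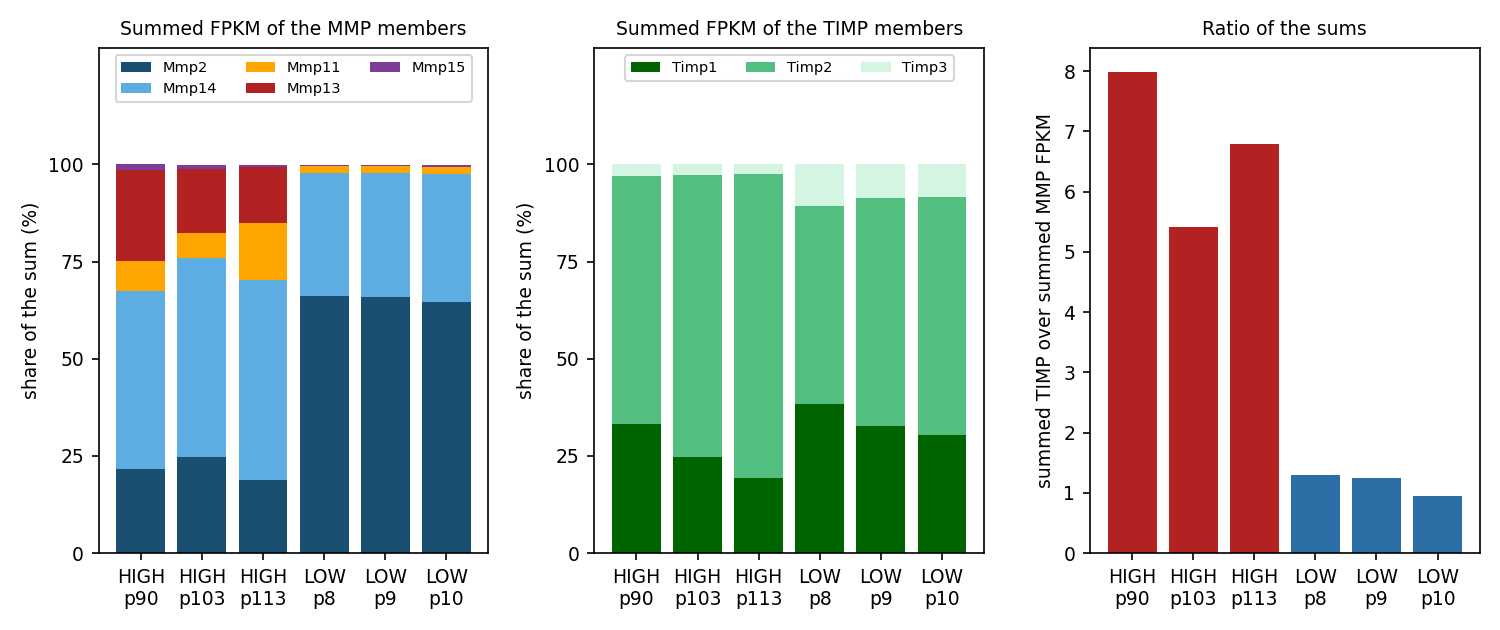
Left and middle, share in percent of each gene in the summed FPKM of the MMP members (Mmp3 and Mmp9, under 0.1%, are not drawn) and of the TIMP members, 1 bar per library with MOE HIGH left of MOE LOW. Right, summed TIMP over summed MMP FPKM, between 5.41 and 7.99 in MOE HIGH (red) and between 0.944 and 1.30 in MOE LOW (blue).

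The cells are labelled epithelial, and their marker genes only partly bear this out. Krt18 and Krt19 were abundant (1417 to 2371 and 553 to 853 FPKM in MOE HIGH, 779 to 827 and 618 to 967 FPKM in MOE LOW) and Pax8 was present (41.0 to 48.8 FPKM in MOE HIGH, 44.4 to 54.4 FPKM in MOE LOW), but the epithelial adhesion genes Epcam and Cdh1 were at 0 to 0.0821 FPKM in all 6 libraries. Marker lists of other cell types moved in different directions. Of 10 fibroblast and stromal markers 6 were lower, 0 were higher, 1 did not pass and 3 were not tested, and their summed level was 22.9 to 32.8 FPKM in MOE HIGH and 596 to 988 FPKM in MOE LOW. Of these, Postn and Thy1 were listed at 0 in all MOE HIGH libraries, Lum was at most 0.0252 FPKM in any library, Dcn averaged 5.66 ± 1.32 FPKM in MOE HIGH and 8.11 ± 2.84 FPKM in MOE LOW (SD, n = 3 each) and was not called, and Dpt was at 0.0316, 0.496 and 0.112 FPKM in MOE HIGH and listed at 0 in all of MOE LOW. Of 7 smooth muscle markers 6 were lower, with a summed level of 70.8 to 109 FPKM in MOE HIGH and 8346 to 12054 FPKM in MOE LOW. Most of the MOE LOW sum came from Acta2 and Tagln (means of 4395 and 4224 FPKM). Most of the MOE HIGH sum came from Smtn (61.1 to 90.1 FPKM), which had a log2 fold change of only -0.61. Myh11 was too low to be tested, at 0.0910 to 0.591 FPKM in MOE LOW. The summed level of both lists was highest in passage 8 within MOE LOW, as were the 3 TIMP genes. Of 6 endothelial markers only Kdr was tested, and it fell, with a summed level of 0 to 0.00998 FPKM in MOE HIGH and 2.1 to 4.54 FPKM in MOE LOW, while Cdh5 and Vwf were listed at 0 in every library. Of 6 leukocyte markers 3 were tested, of which Cd14 was lower, Csf1r was higher and Cd68 was not called, with a summed level of 28.3 to 43.0 FPKM in MOE HIGH and 64.2 to 101 FPKM in MOE LOW, and Cd3e and Itgam were listed at 0 throughout. Of 4 tested mesothelial markers 2 were higher (Msln and Upk3b, log2 fold changes 3.0 and 4.64) and 1 was lower (Wt1, -0.74). Of 6 tested markers of secretory epithelium 2 were higher (Krt7 and Krt18, log2 fold changes 0.97 and 1.31) and 0 lower. Pax8, Ovgp1, Krt8 and Krt19 were not called. Ovgp1 was low, at 0.703 to 1.01 FPKM in MOE HIGH and 0.761 to 1.09 FPKM in MOE LOW. Of 5 tested ciliated cell markers 2 were higher (Foxj1 and Tubb4b, log2 fold changes 1.39 and 1.02) and 1 was lower (Rsph1, -1.80). Rsph1 was at 1.90 to 3.75 FPKM in MOE LOW and listed at 0 in all of MOE HIGH. Beside these short lists, 24.3% of all tested genes were higher and 32.1% lower. In bulk RNA, fewer cells of a type and less RNA per cell cannot be told apart, and the part of any of these cell types in the fall of Mmp2, Mmp14 and the TIMP genes was not tested.

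Few other MMP genes reached a level that could be tested, and most of those fell. Of 17 further family members (16 MMP genes and Timp4) only 5 entered the test, of which 4 were lower, 0 were higher and 1 did not pass. Without the filter 10 were above 0 in some library and tested, and 4 were lower and 0 higher. Of all tested genes 32.1% were lower and 24.3% higher with the filter, and 27.4% and 17.6% without it. Mmp24, another membrane-type gene, was at 0.0286 to 0.0392 FPKM in MOE HIGH and 0 to 0.0164 FPKM in MOE LOW. Mmp16 and Mmp17 encode membrane-type enzymes. Mmp16 was at 0.0181, 0.00931 and 0.00960 FPKM in MOE HIGH passages 90, 103 and 113, against 2.59, 2.20 and 2.02 FPKM in MOE LOW passages 8, 9 and 10 (log2 fold change -1.69 ± 0.11 SE, limma adjusted p = 9.0e-06). Mmp17 was at 0.0357 to 0.133 FPKM in MOE HIGH and 1.52 to 2.79 FPKM in MOE LOW, and Mmp19 was at 0.0636 to 0.171 FPKM in MOE HIGH and 0.810 to 2.06 FPKM in MOE LOW. Neither overlapped between the groups, and their log2 fold changes were -1.47 and -0.98 (limma adjusted p = 0.00014 and 0.0038). With a pseudocount of 0.1 the changes of these low genes were larger, at -3.53 for Mmp17, -2.60 for Mmp19, -4.39 for Mmp16 and -4.41 for Mmp23, and all 4 still passed. Mmp23 was at 0.151, 0 and 0.0396 FPKM in MOE HIGH, against 4.14, 2.22 and 3.30 FPKM in MOE LOW, a log2 fold change of -1.97 (limma adjusted p = 5.2e-05). Mmp28, whose enzyme epilysin is made by epithelia, was at 0.60 to 0.706 FPKM in MOE HIGH and 0.308 to 0.913 FPKM in MOE LOW and did not pass (log2 fold change 0.14, limma adjusted p = 0.48). Its MOE LOW mean of 0.531 FPKM was 0.340 FPKM without passage 10, and over single libraries left out its log2 fold change was 0.04 to 0.31. Timp4 was listed at 0 in all libraries, so Timp1, Timp2 and Timp3 were the whole TIMP family detected.

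Most genes whose products activate, hold or dock MMPs were lower. Of 15 such genes 12 were tested, 9 were lower, 0 higher and 3 not called, with a median log2 fold change of -1.11. Among all tested genes 32.1% were lower and 24.3% higher. Plau and Plat encode the plasminogen activators, which feed the plasmin that activates proMMPs. Plau was at 0.238, 0.227 and 0.0837 FPKM in MOE HIGH passages 90, 103 and 113, against 40.5, 29.0 and 21.7 FPKM in MOE LOW passages 8, 9 and 10 (log2 fold change -4.69, limma adjusted p = 1.4e-06). Plat averaged 11.2 ± 3.88 FPKM in MOE HIGH and 37.5 ± 2.74 FPKM in MOE LOW (SD, n = 3 each; log2 fold change -1.70, limma adjusted p = 0.00025). The urokinase receptor gene Plaur, named after its values were seen, did not share this, at 269, 152 and 145 FPKM in MOE HIGH passages 90, 103 and 113, against 134, 135 and 95.3 FPKM in MOE LOW passages 8, 9 and 10. The groups of Plaur did not overlap, but it did not pass (log2 fold change 0.59, limma adjusted p = 0.079), while it did without passage 113 (0.75, limma adjusted p = 0.040) and was at 0.31 without passage 90. The convertase gene Pcsk6 was listed at 0.0304, 0 and 0 FPKM in MOE HIGH and was at 17.5, 16.7 and 11.9 FPKM in MOE LOW (log2 fold change -4.00, limma adjusted p = 7.1e-07). Cd44, a hyaluronan receptor that can hold MMP9 at the cell surface, had a log2 fold change of -1.16 (limma adjusted p = 0.0017). The integrin gene Itgav, also named after its values were seen, was listed at 0 in passage 113 and at 16.4 and 16.9 FPKM in the other 2 MOE HIGH libraries, and at 34.3 to 41.3 FPKM in MOE LOW. It did not pass (log2 fold change -2.53, limma adjusted p = 0.062), but without passage 113 it was lower (-1.14, limma adjusted p = 0.00012), as it was without passage 90 or 103 (-3.21 and -3.22, limma adjusted p = 0.033 and 0.040).

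Genes of other inhibitors and clearance proteins were lower too, while of all tested genes 32.1% were lower and 24.3% higher. Of 11 genes 6 were tested, 0 were higher and 6 were lower, with a median log2 fold change of -3.16. Serpine2 encodes an inhibitor of plasminogen activators and thrombin. Serpine2 was at 0, 0.132 and 0.050 FPKM in MOE HIGH, against 19.8, 24.1 and 29.7 FPKM in MOE LOW (log2 fold change -4.57, limma adjusted p = 3.8e-07). The thrombospondin gene Thbs1 and Lrp1, the receptor through which MMP2 and thrombospondins are taken up, had log2 fold changes of -3.94 and -2.35 (limma adjusted p = 8.4e-05 and 0.00023). Reck, a membrane-anchored MMP inhibitor named after its values were seen, was at 0.396 to 0.80 FPKM in MOE HIGH and 2.81 to 3.44 FPKM in MOE LOW (log2 fold change -1.43, limma adjusted p = 6.7e-05).

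Transcription factors known to act on MMP genes moved in both directions. Of 21 such genes 20 were tested, 9 were lower, 6 higher and 5 not called. Their median log2 fold change was -0.08, close to the -0.05 of all tested genes, of which 32.1% were lower and 24.3% higher. With libraries scaled to equal totals 10 of the factors were lower and 4 higher. Fosl1, an AP-1 subunit, was at 55.1, 26.6 and 19.8 FPKM in MOE HIGH passages 90, 103 and 113, against 5.40, 6.69 and 5.09 FPKM in MOE LOW passages 8, 9 and 10 (log2 fold change 2.25 ± 0.33 SE, limma adjusted p = 0.00070). Cebpb averaged 242 ± 78.0 FPKM in MOE HIGH and 69.2 ± 14.9 FPKM in MOE LOW (SD, n = 3 each; log2 fold change 1.76, limma adjusted p = 0.00070), and Ets2 and Ets1 had log2 fold changes of 0.69 and 0.54 (limma adjusted p = 0.0012 and 0.025). Ets1 no longer passed at equal totals (0.49, limma adjusted p = 0.13) or without passage 8 or 9 of MOE LOW (limma adjusted p = 0.094 and 0.068). None of the other tested AP-1 genes rose. Junb and Jund, named after their values were seen, were not called (log2 fold changes 0.03 and -0.005, limma adjusted p = 0.91 and 0.98). Fosl2 had a log2 fold change of -1.45 (limma adjusted p = 0.00024), and Fos and Jun, both named after their values were seen, had -1.85 and -1.11 (limma adjusted p = 2.1e-05 and 0.0018). Runx2, an activator of Mmp13 in bone and cartilage and also named after its values were seen, was at 4.70 to 6.18 FPKM in MOE HIGH and 4.47 to 4.86 FPKM in MOE LOW and did not pass (log2 fold change 0.13, and 0.02 without passage 113; limma adjusted p = 0.41 and 0.86). Snai2, a repressor of epithelial genes, fell to 1.61 ± 0.711 FPKM in MOE HIGH, against 23.4 ± 3.23 FPKM in MOE LOW (SD, n = 3 each; log2 fold change -3.25, limma adjusted p = 1.1e-05), and Etv5 and Stat3 had log2 fold changes of -1.92 and -1.68 (limma adjusted p = 1.4e-05 and 2.0e-05).

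Genes of the matrix proteins that MMPs cut were mostly lower as well, while 32.1% of all tested genes were lower and 24.3% higher. Of 30 substrate genes 24 were tested, 17 were lower, 5 higher and 2 not called, with a median log2 fold change of -2.60. Among those with a mean of at least 5 FPKM the largest falls were of tenascin (Tnc, -7.26), biglycan (Bgn, -7.21), the type I collagen chain Col1a2 (-6.74) and fibronectin (Fn1, -5.22), given as log2 fold changes with adjusted p of 1.6e-07, 2.3e-06, 2.0e-06 and 4.0e-07 from limma. The MOE LOW mean of Bgn was 196 FPKM, and 127 FPKM without passage 8. Genes of basement membranes went both ways. The type IV collagen chains Col4a1 and Col4a2 had log2 fold changes of -4.79 and -4.21, and the perlecan gene Hspg2, the laminin chain Lamb1 and the nidogen gene Nid1, all named with them after their values were seen, had -2.0, -1.98 and -1.98, each called lower. The anchoring fibril collagen Col7a1 averaged 11.1 ± 2.33 FPKM in MOE HIGH and 1.37 ± 0.394 FPKM in MOE LOW (SD, n = 3 each), with a log2 fold change of 2.34 and a limma adjusted p of 2.5e-05. Col18a1 and Lama5 had log2 fold changes of 1.90 and 0.64 (limma adjusted p = 0.00013 and 0.020). Lama5 did not pass without passage 9 or 10 of MOE LOW (limma adjusted p = 0.072 and 0.058) and was at 0.43 without passage 103.

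**Figure D4:**
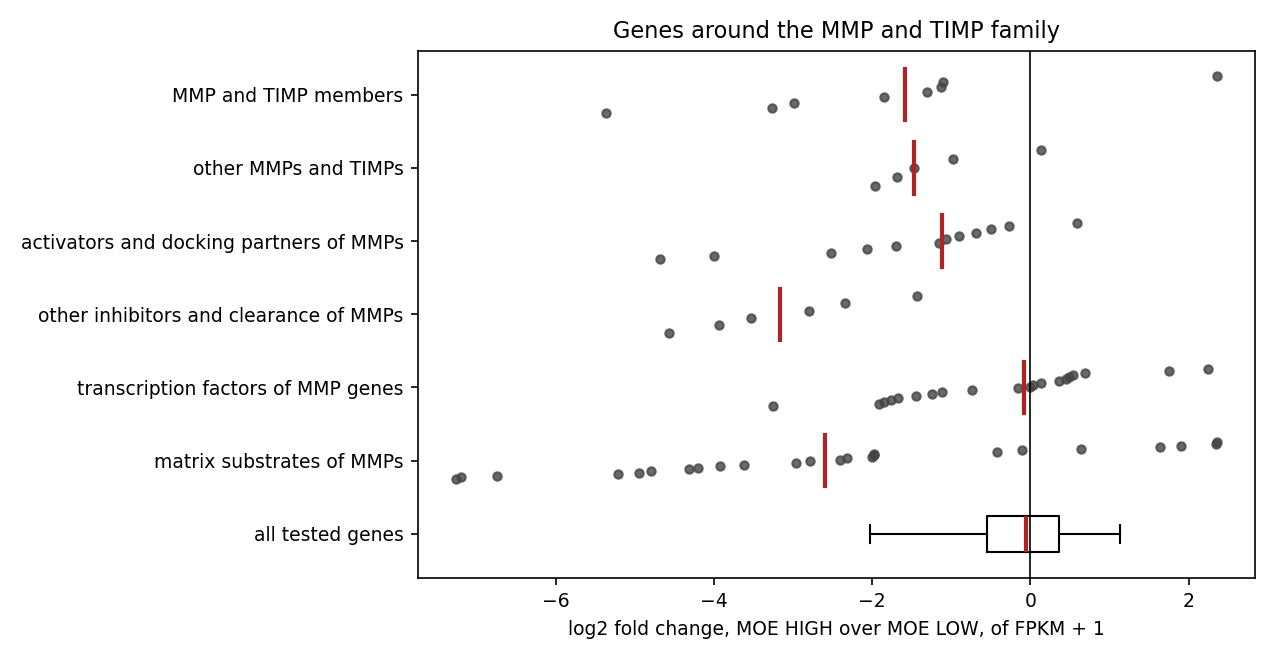
Log2 fold change of MOE HIGH over MOE LOW on the log2(FPKM + 1) scale for each tested gene (points) of the MMP and TIMP members and 5 lists of related genes, with list medians in red, above a box of all 11621 tested genes (quartiles, whiskers at the 5th and 95th percentiles). Medians lie between -3.16 (other inhibitors and clearance) and -0.08 (transcription factors), against -0.05 for all tested genes.

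The genes most like Mmp2, the member with the largest change, were sought among 8319 other genes that averaged 5 FPKM or more, by Pearson correlation of log2(FPKM + 1) over the 6 libraries. The 5 nearest were Speg, Hsd17b11, Acta2, Arhgef25 and Fez1, each with r of at least 0.999, and 349 genes had r over 0.99. Acta2, which encodes smooth muscle actin, was at 5.74 FPKM in MOE HIGH and 4395 FPKM in MOE LOW on average. For Timp2, the most abundant member, the 5 nearest were Atp6v0e, Vmp1, Atp1b3, 2310044G17Rik and Cxx1c, with r of 0.998 to 0.999, and 80 genes had r over 0.99. With 3 libraries in each of 2 separate groups such values mostly restate the difference between the groups.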

How the data were processed

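Total RNA of 3 MOE HIGH and 3 MOE LOW passages was depleted of ribosomal RNA and made into strand-specific libraries. Per the labels, TopHat2 2.0.8b placed the reads on mm10, and the FPKM that the authors deposited, per kilobase and depth, came from Cufflinks and Cuffdiff 2.1.1 over UCSC annotation. No counts were used. Each of the 6 tables held 23141 entries, and for 236 symbols with several entries that of the highest mean was kept. No column heading named the library of its own table. The headings were shifted by 1 place in alphabetical order, so passages were taken from the sample labels. Summed FPKM ranged from 597486 to 770709. Absolute depth is unknown. The value of 1 fragment, read from the lowest genes on the log2 scale, differed from passage 8 by -0.37 to -0.15 in the other 5 libraries.

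The comparison used the limma package (3.58.1, under R 4.3.3) with a variance trend and Benjamini-Hochberg adjustment over 11621 genes at 0.05. With 3 against 3 libraries an exact permutation test cannot go below 0.1 and was not used. A log2 fold change on log2(FPKM + 1) understates the change of low genes. The members, gene lists and alternatives were chosen with earlier results of these data known. Named genes were the 10 members, all tested genes of the list of other MMPs and TIMPs, up to 4 called genes per direction of each other list that averaged 5 FPKM or more, and the 5 genes most correlated with each of 2 members, apart from those said to be named after their values were seen. In all, 18 alternatives were planned and 2 were added after the data were seen. The steps were tested on simulated data. Positions are from GENCODE M21 on mm10 and promoters from RefSeq on GRCm38.p6, read with Python 3.11.15 and pandas 2.3.3. Some genes that the naming rule takes are not reported here.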

Additional observations from a re-analysis of the deposited data

How the results depend on the processing

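The direction of the 8 tested members held under all 20 alternatives that tested them, and 7 members were lower and 1 higher under each of the 3 scalings, both other pseudocounts, a fit without the variance trend, an adjusted p of 0.01, summed entries of repeated symbols, and with any 1 library left out. Against a 2-fold change, 3 members were lower, and 303 genes were higher and 907 lower in all. With a mean of at least 5 FPKM, 0 members were higher, because Mmp13 was no longer tested, and 2350 genes were lower. The common total used in scaling to equal totals was above every summed FPKM. The mean level of each member was therefore higher by construction in both groups (Mmp2 at 8.41 in MOE HIGH and 423 in MOE LOW). With a pseudocount of 0.1 the log2 fold changes of other low genes were larger, at -2.35 for Reck, -3.67 for Fos, -7.13 for Pcsk6 and -7.32 for Serpine2. Without the low-level filter, 8 were lower (Mmp3 added). Without the genes of chromosome 8, which removes Mmp2 and Mmp15, 5 members were lower. With the median fold change set to 0, 7 were lower and 1 higher.

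Over single libraries left out, the log2 fold change was -2.23 to -1.60 for Timp1 and 2.15 to 2.55 for Mmp13, and the largest adjusted p of a member from limma was 0.012 (Timp1). Deviations from the group means of libraries with the same replicate number in the labels correlated by -0.02, -0.15 and 0.12. Those of libraries with different numbers correlated by -0.19 to 0.22. This shows no pairing by replicate number, but so few libraries cannot exclude one. With the replicate block, 2967 genes were higher and 3839 lower, and the members' calls did not change, while Plaur was higher and Itgav lower (limma adjusted p = 0.012 and 0.014). Levels near 0, as of Mmp3 and Mmp9, rest on few fragments, and p-values cover passages of 1 line.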
